A study of Mus musculus with 28 samples.

Results

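Bone marrow-derived macrophages (BMM) with neither the immunity-related GTPase Irgm1 nor IFNAR, the receptor for type I interferons (Irgm_IFNAR-KO, n = 4 libraries), were compared with wild-type BMM (WT, n = 4). These 8 libraries were chosen by their genotype label from the 28 messenger RNA libraries of the study. Irgm1-KO BMM (n = 4), which lack Irgm1 alone, were sequenced beside them and are used to sort the changes into those left and those gained without the receptor. No group lacks the receptor alone, so loss of the receptor and loss of Irgm1 cannot be told apart within the 8 libraries. Per the labels, both mutant lines were backcrossed to C57BL/6, which is the WT strain, and marrow came from male and female mice aged 2 to 4 months. The culture lasted 6 days in medium conditioned by L929 cells, a source of the macrophage growth factor CSF1, and a further 24 h without it. No treatment was given to these 3 groups. Whether the 4 libraries of a group stand for 4 animals is not labelled, and p-values here reflect library-to-library spread, which may be technical. Of 15423 genes in the count table, 13998 passed a low-count filter and all of them were tested.

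Type I interferons bind a receptor made of IFNAR1 and IFNAR2, whose kinases JAK1 and TYK2 activate a transcription factor complex that holds STAT2 and IRF9. This complex binds the interferon-stimulated response element (ISRE) in promoters of antiviral genes, and one of its targets, IRF7, feeds further interferon production. Resting macrophages keep a low level of this signal through small amounts of interferon beta. Interferon gamma acts through another receptor and drives guanylate-binding proteins, immunity-related GTPases and MHC genes. Irgm1 is itself interferon-inducible and acts in autophagy and mitochondrial quality control.

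Library totals ran from 52027977 to 60834653 counts in Irgm_IFNAR-KO, from 49921481 to 60007399 in Irgm1-KO and from 48652844 to 70455339 in WT. Levels are given below in CPM, counts scaled to the TMM-adjusted library size, with libraries 1 to 4 of a group in order. Within groups, a single axis (the first principal component of the deviations from group means) held 53.8% of the variance. Irgm_IFNAR-KO library 4, Irgm1-KO library 3 and WT library 2 lay towards one end of this axis, and WT library 1 lay at the other end. Each of the first 3 had the lowest Xist level of its group, 97.2, 97.9 and 50.8 CPM. All 12 libraries expressed Xist, between 50.8 and 231 CPM. All 10 macrophage markers were in the table, and their summed level was 34170 to 47050 CPM in Irgm_IFNAR-KO, 13610 to 21020 CPM in Irgm1-KO and 26480 to 49580 CPM in WT. Of 11 T and NK cell markers 3 had a value, with Cd3d, Cd3e and Cd3g not among them, and so had 1 of 8 erythroid markers. Marker sums of some other cell types differed between the groups: 2 of 6 megakaryocyte markers summed to 10.6 to 14.5 CPM in Irgm_IFNAR-KO and 22.2 to 55.9 CPM in WT, and 4 of 6 endothelial markers to 25.2 to 34.8 CPM in Irgm_IFNAR-KO and 39.7 to 62.5 CPM in WT. Nearly all of the megakaryocyte sum was the single gene Pf4, since Itga2b was at 0.145 CPM or less. The part of these cell types in the results was not tested.

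The targeted genes were still counted in Irgm_IFNAR-KO. Irgm1 had 786, 665, 772 and 641 CPM in Irgm_IFNAR-KO, against 1290.4, 1189, 1339 and 1352 CPM in WT, a difference of -0.85 ± 0.10 on the log2 scale (± SE; adjusted p = 1.5e-04, edgeR's quasi-likelihood test with Benjamini-Hochberg adjustment, used throughout). Ifnar1 had 114, 109, 53.1 and 108 CPM in Irgm_IFNAR-KO and 139, 128, 137 and 141 CPM in WT. All 4 Irgm_IFNAR-KO libraries lay below all 4 WT libraries for Ifnar1, but the difference did not pass the test (log2 fold change -0.50 ± 0.19, adjusted p = 0.12). Irgm_IFNAR-KO library 3 was the lowest, and the other 3 lay within a narrow range. Without library 3 the fall of Ifnar1 passed the test. The receptor's other chain, Ifnar2, differed by -0.11 ± 0.06 (adjusted p = 0.28). Counts per gene do not show whether the remaining reads fall in the deleted parts, so these levels do not check the 2 genotypes.

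In Irgm_IFNAR-KO against WT, 552 genes rose (3.94% of the genes tested) and 1150 fell (8.22%), so that 12.2% were called in either direction. The median log2 fold change was 0.49 among genes that rose, -0.93 among genes that fell and 0.01 over all genes. Falls were larger as well as more frequent, with 534 genes down and 108 up by more than 2-fold. The libraries of both groups did not overlap for 2504 genes (17.9%), and 1631 of the called genes were among them. The number of rises depended on single libraries: it was 367 without WT library 3, and 361, 360 and 337 without Irgm_IFNAR-KO libraries 1, 2 and 3. With log2 Xist as a covariate, 2208 genes rose and 2229 fell, so that rises made up 49.8% of the calls, against 32.4% without it. Without the 3 libraries at one end of the within-group axis, 803 genes rose and 1537 fell. In these bulk samples, fewer cells of a type and less RNA per cell cannot be told apart.

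The calls were sorted by what Irgm1-KO cells did against the same WT libraries. A change counted as left when it was called in the same direction in both mutants, and as opposite when the directions differed. It counted as gained when Irgm_IFNAR-KO was called against both other groups in one direction and Irgm1-KO was not called against WT. This gave 662 changes left (216 rises and 446 falls), 589 opposite (164 rises and 425 falls) and 380 gained (143 rises and 237 falls), with 71 placed in none. The comparisons share libraries, so these classes are a description without a test. For scale, 2767 genes rose and 2893 fell in Irgm1-KO against WT (19.8% and 20.7% of the genes tested).

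Interferon-inducible antiviral genes were strongly lowered. Of 27 tested nucleic acid sensors of the interferon-inducible kind 24 fell and 1 rose (median log2 fold change -1.14), and of 44 antiviral effectors 38 fell and none rose (median -1.43), against 8.22% of all genes that fell and a median of 0.01 over all genes. A further 16 of 26 genes for ISG15 conjugation and interferon-inducible PARP and TRIM proteins fell, and none rose (median -0.57). In Irgm1-KO against the same WT libraries, 25 of the 27 sensors, 37 of the 44 effectors and 22 of the 26 others rose. Their medians there were 1.13, 1.43 and 0.97, and 19.8% of all genes rose. Medians of these lists were the same to 2 decimals with members at 3 counts or fewer set to their bound. These counts were 23 to 24, 33 to 37 and 14 to 17 falls when any 1 of the 8 libraries was left out.

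**Figure D1:**
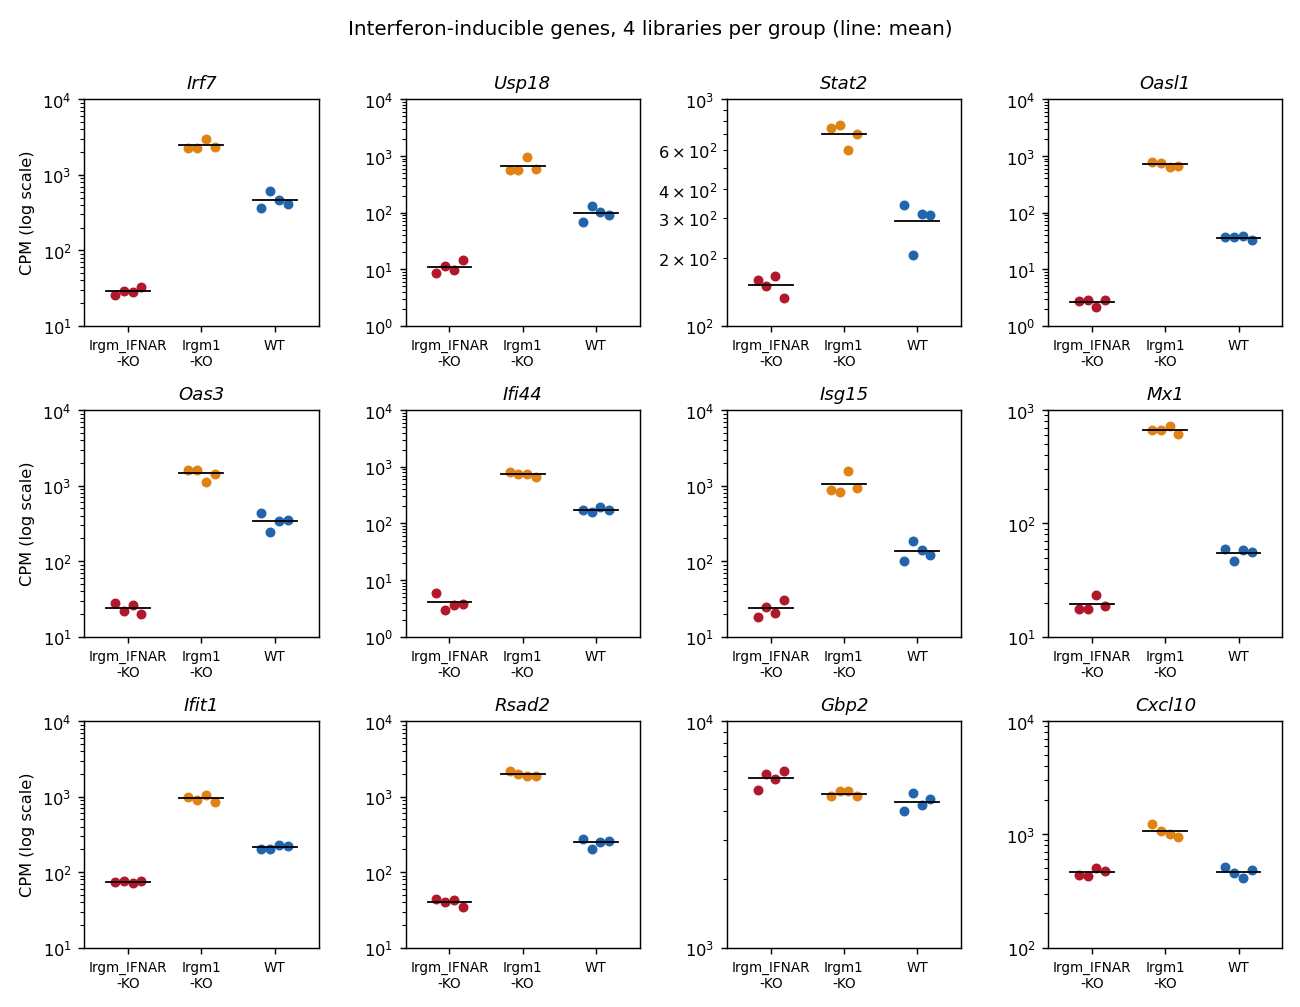
Levels of 12 interferon-inducible genes in each library, in CPM on a log scale (points: libraries; black line: mean of 4), for Irgm_IFNAR-KO, Irgm1-KO and WT. In 10 of the 12 panels all Irgm_IFNAR-KO points lie below all WT points and all Irgm1-KO points lie above them; Gbp2 and Cxcl10 do not follow this order.

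Among the signalling genes, Irf7, the master transcription factor of interferon alpha production, had 25.6, 28.5, 28.0 and 32.9 CPM in Irgm_IFNAR-KO, 2250.0, 2237, 2996 and 2344 CPM in Irgm1-KO and 359.8, 612, 461 and 416 CPM in WT. Every Irgm_IFNAR-KO library lay far below every WT library, and the log2 fold change was -4.01 ± 0.18 (adjusted p = 4.9e-08). Usp18, which removes ISG15 and dampens the receptor, stood at 8.66, 11.2, 9.72 and 14.5 CPM in Irgm_IFNAR-KO against 68.5, 133, 103 and 90.9 CPM in WT (-3.16 ± 0.25, adjusted p = 7.1e-06). Stat2 had 159, 149, 166 and 133 CPM in Irgm_IFNAR-KO against 340.0, 205.6, 310.3 and 309.7 CPM in WT, again without overlap (-0.94 ± 0.15, adjusted p = 0.001). Its partner Irf9 did not pass the test (-0.27 ± 0.09, adjusted p = 0.084). It had 67.4, 74.4, 69.6 and 75.6 CPM in Irgm_IFNAR-KO and 76.3, 94.3, 88.5 and 86.8 CPM in WT, without overlap. Irf9 was called lower without WT library 1 and without the 3 libraries at one end of the axis. It was also called lower with log2 Xist as a covariate and by the DESeq2 Wald test. Of the 17 signalling genes 4 fell and 1 rose, against 8.22% and 3.94% of all genes. The rise was Socs3, a feedback inhibitor of cytokine receptors, at 0.58 ± 0.12 (adjusted p = 0.0066). Without the 3 libraries at one end of the axis, 7 of the 17 fell and 2 rose.

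Oligoadenylate synthetases, which activate RNase L on sensing double-stranded RNA, were among the most strongly lowered genes. Oas1g had 3, 2, 4 and 14 counts in the 4 Irgm_IFNAR-KO libraries, against 858, 1610, 1344 and 1414 counts in WT. Oas2 had 1.99, 1.93, 2.01 and 0.989 CPM in Irgm_IFNAR-KO against 38.4, 17.2, 32.6 and 31.0 CPM in WT (-4.11 ± 0.28, adjusted p = 2.1e-06), and Oas3 had 27.9, 22.2, 26.5 and 19.7 CPM in Irgm_IFNAR-KO against 436, 243, 340.0 and 348 CPM in WT (-3.83 ± 0.20, adjusted p = 2.0e-07). Every Irgm_IFNAR-KO library was below every WT library for all 3 genes. Oasl1, a relative that restrains Irf7 translation in mouse, had 2.70, 2.89, 2.17 and 2.83 CPM in Irgm_IFNAR-KO, 775, 754, 649 and 676 CPM in Irgm1-KO and 36.3, 36.5, 37.9 and 32.2 CPM in WT (-3.75 ± 0.11, adjusted p = 2.1e-09). The DNA sensor genes Ifi206 and Ifi213 differed by -3.89 and -3.89 in Irgm_IFNAR-KO and by 2.14 and 2.29 in Irgm1-KO. A member of that same gene cluster, Ifi208, went the other way, with 84, 49, 72 and 51 counts in Irgm_IFNAR-KO and 1, 0, 1 and 4 counts in WT. It was the sensor that rose, and near-identical neighbours make its count uncertain.

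Among effectors, Rsad2 (viperin, which makes a chain-terminating nucleotide) had 44.3, 39.6, 42.8 and 34.5 CPM in Irgm_IFNAR-KO, 2173, 2026, 1905 and 1859 CPM in Irgm1-KO and 276, 202, 252 and 259 CPM in WT (-2.62 ± 0.12, adjusted p = 4.9e-08). Ifi44 had 6.02, 2.93, 3.55 and 3.75 CPM in Irgm_IFNAR-KO against 175, 159, 192 and 171 CPM in WT (-5.42 ± 0.21, adjusted p = 2.5e-08). Rtp4, a chaperone of membrane receptors, had a narrow range in both groups, with 33.9, 34.2, 34.8 and 37 CPM in Irgm_IFNAR-KO and 218, 215, 231 and 223 CPM in WT (-2.66 ± 0.06, adjusted p = 4.7e-10). Apol9a and Apol9b, near-identical copies whose reads may be split between them, were at the floor. Apol9a had 0 counts in all 4 Irgm_IFNAR-KO libraries and 7 to 11 in WT, and Apol9b had 0, 1, 2 and 0 counts against 51, 55, 82 and 78. Taken against a floor of 3 counts per library, Apol9b was at least 23.2-fold lower in Irgm_IFNAR-KO. Samhd1, a nucleotide hydrolase that limits retroviruses, had 2629.6 ± 216 CPM in Irgm_IFNAR-KO and 2467 ± 334 CPM in WT (SD, n = 4 each) and was not called (adjusted p = 0.78).

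Isg15, the ubiquitin-like modifier, had 18.4, 24.7, 20.4 and 31.0 CPM in Irgm_IFNAR-KO, 880.3, 834, 1577 and 940.3 CPM in Irgm1-KO and 101, 183, 139 and 121 CPM in WT (-2.53 ± 0.26, adjusted p = 4.6e-05). Ifit1, which binds RNA without a host-type cap, had 73.2, 75.9, 72.1 and 75.6 CPM in Irgm_IFNAR-KO against 202, 199.6, 225 and 221 CPM in WT (-1.51 ± 0.08, adjusted p = 2.7e-07). The antiviral GTPase Mx1 had 17.6, 17.6, 23.3 and 18.5 CPM in Irgm_IFNAR-KO against 59.4, 46.7, 57.8 and 56.2 CPM in WT (-1.52 ± 0.11, adjusted p = 3.9e-06). The groups stood apart in all 3, but these genes kept a level in Irgm_IFNAR-KO that Oas1g and Apol9a did not. Trim30a, a TRIM protein that restrains NF-kB signalling, differed by -1.18 ± 0.07 (adjusted p = 6.1e-07), and the neighbouring copies Trim30c and Trim30d by -1.96 and -1.32.

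The promoters of these genes, taken from RefSeq on build GRCm38.p6 as 250 bases before to 50 after the start, were searched on both strands for the ISRE, written as GAAA, any 2 bases and GAAA. A promoter was found for 9764 of the tested genes. The letters occurred in 4.19% of these, in 3.68% of those of genes that rose and in 11% of those of genes that fell. Among genes that fell, the share was 19.7% in the opposite class, 5.34% in the class left and 8.06% in the class gained. It was 61.9% for the 21 sensors and 47.2% for the 36 effectors with a promoter. The stretches of 4 lowered genes that hold a match before the start are shown so that the element can be read in place, with the matches in capitals. They lie at chr5:120777685-120777774 (minus strand) for Oas3, chr12:26456523-26456612 (minus strand) for Rsad2, chr19:34640745-34640853 (plus strand) for Ifit1 and chr4:156200835-156200936 (minus strand) for Isg15, and each sequence is written 5′ to 3′ on the strand of its gene.
Oas3: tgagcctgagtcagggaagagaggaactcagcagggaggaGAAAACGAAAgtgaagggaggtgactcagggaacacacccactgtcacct
Rsad2: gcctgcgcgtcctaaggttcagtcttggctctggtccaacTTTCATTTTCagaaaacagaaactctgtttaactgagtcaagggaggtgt
Ifit1: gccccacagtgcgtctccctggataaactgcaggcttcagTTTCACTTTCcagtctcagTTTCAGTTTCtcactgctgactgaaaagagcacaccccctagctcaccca
Isg15: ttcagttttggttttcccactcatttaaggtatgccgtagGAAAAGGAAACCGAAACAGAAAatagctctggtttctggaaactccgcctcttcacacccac
Rsad2 and Ifit1 carry the element on the opposite strand, where it reads TTTC, any 2 bases and TTTC, Ifit1 has 2 matches, and the 3 matches of Isg15 overlap.

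The same letters also stood before genes that were not lowered. Of 11 promoters of guanylate-binding proteins and immunity-related GTPases 90.9% held the element, yet of the 18 genes tested 4 fell and 2 rose (median log2 fold change -0.08). The falls included the targeted gene Irgm1 itself, and of all genes 8.22% fell and 3.94% rose. Shown for comparison are Gbp2 at chr3:142620564-142620653 (plus strand), Igtp at chr11:58199482-58199555 (plus strand) and Cxcl10 at chr5:92349053-92349139 (minus strand), again with matches in capitals.
Gbp2: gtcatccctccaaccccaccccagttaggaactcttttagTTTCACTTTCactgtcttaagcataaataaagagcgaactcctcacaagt
Igtp: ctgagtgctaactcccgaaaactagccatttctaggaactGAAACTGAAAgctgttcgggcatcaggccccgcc
Cxcl10: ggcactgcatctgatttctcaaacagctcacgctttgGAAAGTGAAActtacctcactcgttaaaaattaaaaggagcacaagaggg
Gbp2 carries the element on the opposite strand. This gene, which encodes a GTPase that coats the vacuoles of intracellular pathogens, had 4951, 5839, 5547 and 6033 CPM in Irgm_IFNAR-KO against 4010.4, 4838, 4268 and 4549.8 CPM in WT, a small rise (0.34 ± 0.08, adjusted p = 0.012). Igtp (Irgm3), a partner of Irgm1, had 735 ± 18.3 CPM in Irgm_IFNAR-KO and 761 ± 39.3 CPM in WT (-0.05 ± 0.06, adjusted p = 0.78). Iigp1, the effector GTPase that Irgm proteins hold inactive, rose by 0.46 ± 0.12 (adjusted p = 0.028), with 3102, 3544, 2994 and 3214 CPM in Irgm_IFNAR-KO against 1988, 2814, 2288 and 2259 CPM in WT. In Irgm1-KO it was called in the other direction (-0.65 ± 0.12). The rise of Iigp1 no longer passed without WT library 1, 3 or 4 or without Irgm_IFNAR-KO library 1, 2 or 4, which left 1 rise in the group.

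Of 21 genes of MHC class I presentation 4 fell and none rose (median -0.22), against 8.22% of all genes that fell. The falls were H2-Q6, H2-Q7, H2-T22 and H2-T24, nonclassical class I genes, of which H2-T22 did not pass without WT library 2, 3 or 4 or Irgm_IFNAR-KO library 1, 2 or 3. H2-Q6 had 2.70, 2.91, 2.89 and 2.74 CPM in Irgm_IFNAR-KO, 56.3, 57.9, 60.6 and 55.8 CPM in Irgm1-KO and 7.53, 7.80, 8.03 and 8.28 CPM in WT (-1.49 ± 0.07, adjusted p = 4.9e-08), and Q-region genes share sequence, which makes single members uncertain. H2-K1, a classical heavy chain, differed by -0.22 (adjusted p = 0.07), the light chain B2m by -0.30 (adjusted p = 0.11), and the peptide transporter Tap1 by -0.17 (adjusted p = 0.081). Without the 3 libraries at one end of the axis, 10 of the 21 fell.

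Among chemokines, falls and rises were both large. Of 21 tested 9 fell and 2 rose (median -0.46), against 8.22% of all genes that fell and 3.94% that rose. Ccl7, a monocyte attractant, had 0.619, 1.0, 0.825 and 0.920 CPM in Irgm_IFNAR-KO, 64.7, 66.1, 84.2 and 79.9 CPM in Irgm1-KO and 7.06, 8.26, 7.99 and 10.8 CPM in WT (-3.34 ± 0.18, adjusted p = 2.4e-07). Ccl2 and Ccl12, other ligands of CCR2, differed by -1.96 ± 0.10 and -1.57 ± 0.20 (adjusted p = 1.8e-07 and 2.3e-04). All 3 rose in Irgm1-KO against WT. Cxcl9, a CXCR3 ligand, had 1728, 2149, 2275 and 2943 CPM in Irgm_IFNAR-KO, 2858, 2629, 2907 and 2466 CPM in Irgm1-KO and 687, 811, 653 and 812 CPM in WT, so that both mutants were above WT (1.62 ± 0.15, adjusted p = 1.7e-05). Cxcl10, another CXCR3 ligand, had 441, 432, 501 and 478 CPM in Irgm_IFNAR-KO and 513, 452, 414 and 488 CPM in WT, ranges that overlapped (-0.01 ± 0.10, adjusted p = 0.98), while Irgm1-KO had 1230.3, 1064, 1017 and 950.4 CPM. Ccl5 (RANTES) rose to 169, 253, 217 and 339 CPM in Irgm_IFNAR-KO, against 90.7, 95.7, 91.5 and 100.1 CPM in WT (1.37 ± 0.17, adjusted p = 2.0e-04).

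Of 21 inflammatory cytokine genes 8 fell and 3 rose (median -0.46), beside the same shares of all genes. Csf1, the macrophage growth factor, had 3.06, 2.63, 3.08 and 2.53 CPM in Irgm_IFNAR-KO, 29.5, 30.3, 25.4 and 30.4 CPM in Irgm1-KO and 10.6, 7.06, 8.87 and 9.08 CPM in WT (-1.65 ± 0.13, adjusted p = 5.0e-06). Il10, an anti-inflammatory cytokine, also fell (-0.51 ± 0.15, adjusted p = 0.045), but not without WT library 2, 3 or 4 or Irgm_IFNAR-KO library 1, 2 or 3. Il1b and Tnf were among the rises. Il1b had 4.62, 4.20, 5.18 and 5.50 CPM in Irgm_IFNAR-KO, 1.08, 0.943, 0.83 and 0.948 CPM in Irgm1-KO and 2.14, 3.43, 1.92 and 2.50 CPM in WT, so the 2 mutants lay on opposite sides of WT (0.97 ± 0.17, adjusted p = 0.0022). Tnf had 28.4, 24.7, 32.3 and 28.6 CPM in Irgm_IFNAR-KO, 44.8, 41.1, 31.9 and 40.6 CPM in Irgm1-KO and 23, 17.2, 16.6 and 18.2 CPM in WT, with both mutants above WT (0.60 ± 0.13, adjusted p = 0.0095).

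**Figure D2:**
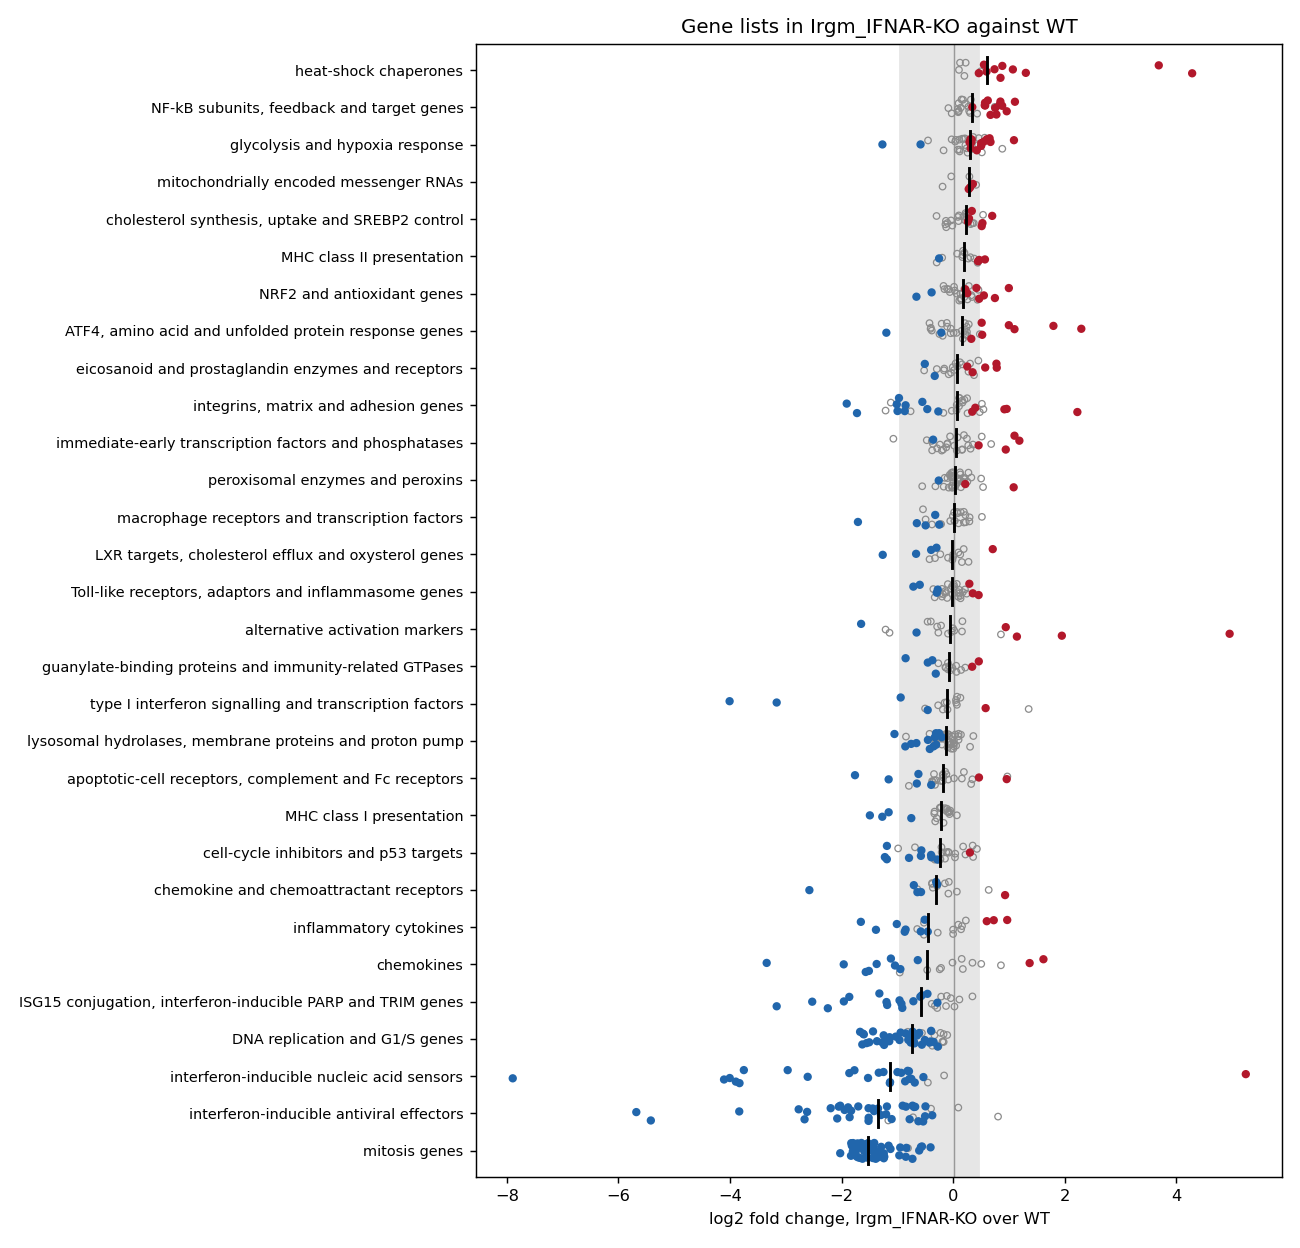
Log2 fold change of each tested member of 30 gene lists in Irgm_IFNAR-KO over WT, lists ordered by their median (black bar, over the members plotted). Filled points passed the test (red higher, blue lower), open points did not, the grey band spans the central 90% of all tested genes (-0.96 to 0.47), and 4 members with a group at 3 counts or fewer in every library are left out. Interferon-inducible effectors, sensors and mitosis genes lie furthest to the left.

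Mitosis genes fell and most of these falls were of the class left. Of 52 tested genes 51 fell and none rose (median log2 fold change -1.53), against 8.22% of all genes, and 49 of the falls were also called in Irgm1-KO. Compared with Irgm1-KO directly, 28 of the 52 were higher in Irgm_IFNAR-KO and 4 were lower (median 0.52), beside 21.5% and 21.3% of all genes. Plk1, the kinase that drives mitotic entry, had 4.59, 2.50, 4.18 and 3.78 CPM in Irgm_IFNAR-KO, 1.83, 3.0, 2.03 and 2.79 CPM in Irgm1-KO and 17.9, 16, 12.1 and 15.3 CPM in WT (-2.02 ± 0.21, adjusted p = 4.7e-05). Cyclin B1 (Ccnb1) had 7.47, 5.88, 8.55 and 7.85 CPM in Irgm_IFNAR-KO against 17.7, 34.3, 16.4 and 20.2 CPM in WT (-1.57 ± 0.22, adjusted p = 4.2e-04), and Top2a, which untangles replicated DNA, had 60.5, 45, 73.0 and 52.0 CPM in Irgm_IFNAR-KO against 173, 168, 123 and 162 CPM in WT (-1.44 ± 0.15, adjusted p = 6.2e-05). The WT libraries were above every Irgm_IFNAR-KO library for all 3. The exception was Mki67, which encodes the proliferation antigen Ki-67. It had 55.9, 37.6, 60.9 and 30.8 CPM in Irgm_IFNAR-KO and 119, 52.6, 67.2 and 85.8 CPM in WT, with overlap (-0.81 ± 0.31, adjusted p = 0.13). The number of falls was 49 to 51 when any 1 of the 8 libraries was left out and 52 without the 3 libraries at one end of the axis.

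Tpx2, which activates Aurora A on the spindle, was the mitosis gene called in opposite directions. It had 12.5, 8.91, 13.1 and 9.67 CPM in Irgm_IFNAR-KO, 149.8, 145, 131 and 133 CPM in Irgm1-KO and 40.7, 35.3, 30.4 and 38.7 CPM in WT (-1.72 ± 0.14, adjusted p = 6.4e-06; 1.95 ± 0.13 in Irgm1-KO, adjusted p = 4.0e-07).

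**Figure D3:**
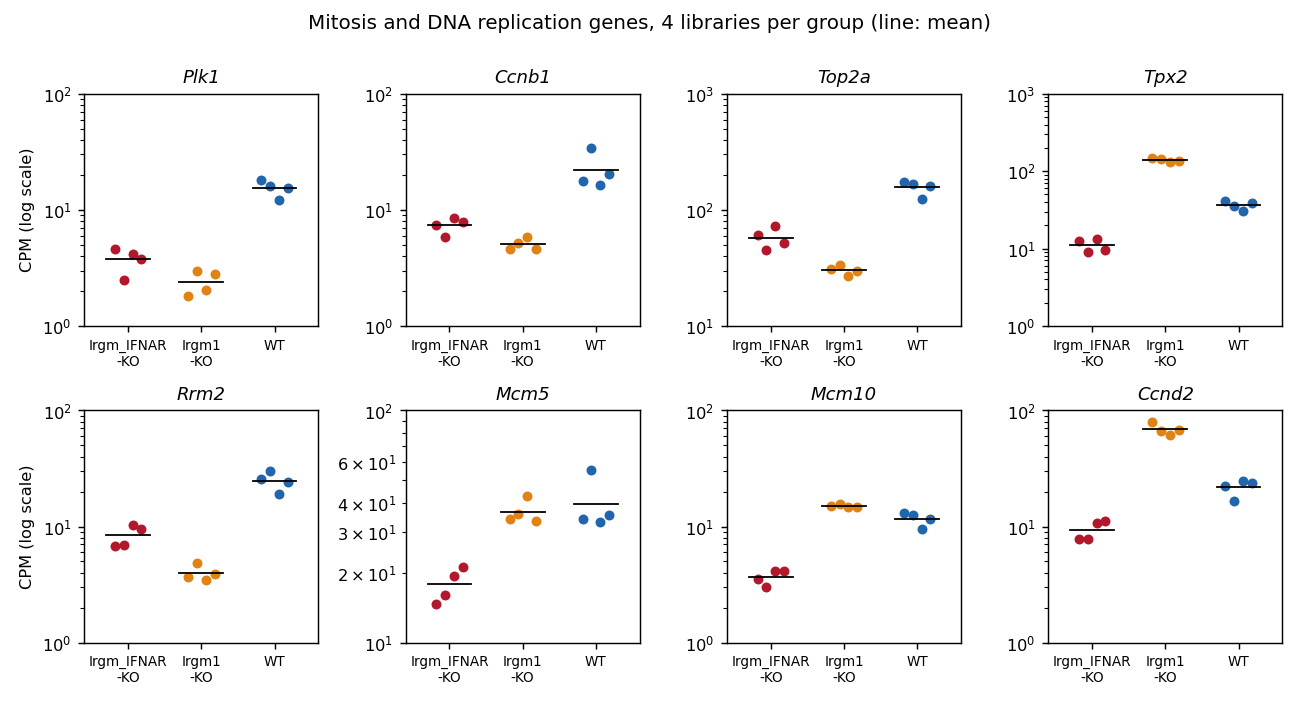
Levels of 4 mitosis genes (Plk1, Ccnb1, Top2a, Tpx2) and 4 genes of DNA synthesis and the G1/S step (Rrm2, Mcm5, Mcm10, Ccnd2) in each library, in CPM on a log scale (points: libraries; black line: mean of 4), for Irgm_IFNAR-KO, Irgm1-KO and WT. All 8 genes are lower in Irgm_IFNAR-KO than in WT, while Irgm1-KO lies below WT for Plk1, Ccnb1, Top2a and Rrm2 and above it for Tpx2, Mcm10 and Ccnd2.

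Genes of DNA replication and the G1/S step fell too, but were sorted differently. Of 51 tested 37 fell and none rose (median -0.73), against 8.22% of all genes that fell. Of the 37 falls 19 were left, 12 gained and 6 opposite. In Irgm1-KO against the same WT libraries, 21 of the 51 fell and 7 rose, beside 20.7% and 19.8% of all genes. Mcm5, a subunit of the replicative helicase, had 14.7, 16.1, 19.4 and 21.2 CPM in Irgm_IFNAR-KO, 34, 35.7, 42.7 and 33.2 CPM in Irgm1-KO and 34, 55.5, 32.9 and 35.3 CPM in WT (-1.14 ± 0.18, adjusted p = 0.001). Mcm10, which helps to activate that helicase, had 3.50, 3.0, 4.14 and 4.10 CPM in Irgm_IFNAR-KO, 15.1, 15.7, 14.8 and 14.9 CPM in Irgm1-KO and 13, 12.7, 9.6 and 11.6 CPM in WT (-1.67 ± 0.12, adjusted p = 3.3e-06). For both genes all 4 Irgm_IFNAR-KO libraries lay below all libraries of the other groups. Rrm2, the small subunit of ribonucleotide reductase, was low in both mutants, with 6.85, 6.98, 10.4 and 9.58 CPM in Irgm_IFNAR-KO, 3.67, 4.88, 3.44 and 3.87 CPM in Irgm1-KO and 25.6, 30.4, 19.2 and 24 CPM in WT (-1.55 ± 0.18, adjusted p = 1.0e-04). The cyclin genes Ccnd1 and Ccnd2, which start the cycle, differed by -1.19 ± 0.12 and -1.22 ± 0.16 in Irgm_IFNAR-KO and were above WT in Irgm1-KO (0.96 and 1.66). The inhibitor Cdkn1a (p21) was also lower, with 204.2 ± 12 CPM in Irgm_IFNAR-KO and 305 ± 21.5 CPM in WT (SD, n = 4 each; adjusted p = 2.5e-04).

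The cell cycle homology region (CHR), written as TTTGAA and bound by the complex that switches mitosis genes on, was searched in the same way. It was present in 14.6% of the promoters of all tested genes, 11.3% of those of genes that rose, 22.9% of those of genes that fell and 32.0% of those of falls of the class left. Of the 43 mitosis genes with a promoter 76.7% held it, against 17.5% of the 40 replication genes. The CCAAT box was in 76.7% of the mitosis promoters and in 43.0% of all. The stretches before the start of Cdc20 at chr4:118437344-118437401 (minus strand), Kif11 at chr19:37376323-37376381 (plus strand) and Ube2c at chr2:164769860-164769928 (plus strand) are shown because the element lies within 30 bases of the start, with that match in capitals.
Cdc20: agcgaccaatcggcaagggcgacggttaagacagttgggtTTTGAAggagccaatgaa
Kif11: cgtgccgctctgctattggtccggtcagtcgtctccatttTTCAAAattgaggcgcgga
Ube2c: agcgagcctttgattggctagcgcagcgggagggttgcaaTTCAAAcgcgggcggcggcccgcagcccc
Kif11 and Ube2c carry it on the opposite strand (TTCAAA). Cdc20, the activator of the anaphase-promoting complex, had 5.08, 4.09, 5.94 and 5.71 CPM in Irgm_IFNAR-KO against 16.7, 21.8, 14.7 and 15.1 CPM in WT (-1.71 ± 0.15, adjusted p = 1.3e-05). The spindle motor Kif11 differed by -1.59 ± 0.14 and the ubiquitin-conjugating enzyme Ube2c by -1.71 ± 0.18 (adjusted p = 1.1e-05 and 6.2e-05).

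Chaperone genes rose and all of these rises were of the class left. Of 15 heat-shock genes 10 rose and none fell (median 0.60), against 3.94% of all genes. The inducible HSP70 genes Hspa1a and Hspa1b, near-identical copies, rose most. Hspa1b had 9.38, 12.2, 12.2 and 11.6 CPM in Irgm_IFNAR-KO, 55.4, 43.9, 31.8 and 33.8 CPM in Irgm1-KO and 0.631, 0.435, 0.502 and 0.726 CPM in WT (4.28 ± 0.22, adjusted p = 2.0e-07), and Hspa1a had 7.73 ± 0.551 CPM in Irgm_IFNAR-KO, 29.5 ± 7.19 CPM in Irgm1-KO and 0.603 ± 0.0720 CPM in WT (SD, n = 4 each; 3.69 ± 0.19, adjusted p = 2.0e-07). Irgm_IFNAR-KO lay between the other groups for both. The cytosolic HSP90 gene Hsp90ab1 had 1466, 1552, 1526 and 1676 CPM in Irgm_IFNAR-KO against 808, 881, 824 and 865 CPM in WT (0.88 ± 0.07, adjusted p = 5.8e-06), and Hsph1, a nucleotide exchange factor for HSP70, differed by 1.30 ± 0.09 (adjusted p = 3.2e-06). Leaving out any 1 of the 8 libraries gave 9 to 10 rises.

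Fewer genes of the ATF4-controlled amino acid and stress response changed. Of 33 genes of this list, which includes the unfolded protein response, 7 rose and 2 fell (median 0.17, or 0.15 with Pycr1 at its bound), against 22 that rose and 7 that fell in Irgm1-KO (median 0.90). Over all genes, 3.94% rose and 8.22% fell in Irgm_IFNAR-KO, and 19.8% rose and 20.7% fell in Irgm1-KO. Without Irgm_IFNAR-KO library 2 the number of rises was 4, and the number of falls was 1 when any 1 WT or Irgm_IFNAR-KO library other than WT library 1 was left out. Asns, asparagine synthetase, had 18.3, 20.4, 20 and 24.8 CPM in Irgm_IFNAR-KO, 77.6, 83, 85.8 and 79 CPM in Irgm1-KO and 8.61, 10.6, 10.2 and 9.57 CPM in WT (1.10 ± 0.10, adjusted p = 1.9e-05). The amino acid carrier Slc7a5 had 4.64, 4.68, 4.41 and 4.20 CPM in Irgm_IFNAR-KO, 21.9, 25.8, 16.1 and 22.4 CPM in Irgm1-KO and 1.55, 0.826, 1.58 and 1.19 CPM in WT (1.80 ± 0.19, adjusted p = 6.3e-05). All 4 Irgm_IFNAR-KO libraries were above WT and below Irgm1-KO for both genes. Ddit3 (CHOP) fell, with 6.95, 6.54, 5.83 and 7.32 CPM in Irgm_IFNAR-KO, 50, 51, 59.3 and 54.8 CPM in Irgm1-KO and 14.1, 16.6, 16 and 14.5 CPM in WT (-1.20 ± 0.09, adjusted p = 5.8e-06).

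Of 30 NF-kB subunit, feedback and target genes 13 rose and none fell (median 0.33), against 3.94% of all genes that rose and 8.22% that fell, with 11 left and 2 gained. Sod2, mitochondrial superoxide dismutase, had 151, 173, 177 and 186 CPM in Irgm_IFNAR-KO, 263, 247, 239 and 232 CPM in Irgm1-KO and 85.5, 100.2, 80.1 and 87.7 CPM in WT (0.96 ± 0.09, adjusted p = 2.2e-05). Nfkbie, an inhibitor that NF-kB induces, had 47.2, 50.2, 54.2 and 56.9 CPM in Irgm_IFNAR-KO against 30.7, 29.7, 27.7 and 29.1 CPM in WT (0.83 ± 0.08, adjusted p = 2.9e-05). The gained rises were Tnfaip2 and Nfkbiz. Tnfaip2 had 785, 852, 879 and 799.7 CPM in Irgm_IFNAR-KO, 569.9, 567, 509.5 and 559 CPM in Irgm1-KO and 546, 479, 466 and 475 CPM in WT (0.75 ± 0.07, adjusted p = 3.6e-05). Nfkbiz, a nuclear cofactor for secondary response genes, had 29.4, 23.9, 29.9 and 21.8 CPM in Irgm_IFNAR-KO against 18.4, 7.08, 11 and 12.3 CPM in WT (1.11 ± 0.25, adjusted p = 0.011). The count of rises was 11 to 14 when any 1 of the 8 libraries was left out. The NF-kB site written as GGGA, any 2 bases and TTCC was in 2 of 25 promoters of this list (8.0%) and 1.80% of all. Its share was 2.21% among all genes that rose and 2.11% among genes that fell.

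Of 38 glycolysis and hypoxia genes 13 rose and 2 fell (median 0.31), against 3.94% of all genes that rose and 8.22% that fell. Pfkl, the liver-type phosphofructokinase, had 73.1, 83.7, 80.3 and 74.9 CPM in Irgm_IFNAR-KO against 50.7, 42.4, 50.6 and 52.4 CPM in WT (0.67 ± 0.09, adjusted p = 2.8e-04), and the lactate exporter Slc16a3 differed by 0.65 ± 0.09 (adjusted p = 5.2e-04). Hk2, hexokinase 2, overlapped between groups (0.11, adjusted p = 0.85), as did Vegfa (0.14, adjusted p = 0.51). The number of falls was 1 when any 1 WT or Irgm_IFNAR-KO library other than WT library 2 was left out. The number of rises was 8 without Irgm_IFNAR-KO library 2 and 21 without the 3 libraries at one end of the axis. The hypoxia response element core ACGTG was in 74.3% of the 35 promoters of the list and 29.4% of all. Its share was 30.1% among all genes that rose, near that of all genes, and 24.3% among genes that fell. Antioxidant genes of the NRF2 list rose in 7 of 30 cases and fell in 2 (median 0.18), beside the same shares of all genes. Gclm, the regulatory subunit of the first enzyme of glutathione synthesis, had 59.2, 54.1, 53.7 and 47.5 CPM in Irgm_IFNAR-KO against 33.7, 37.7, 27.2 and 29.1 CPM in WT (0.75 ± 0.12, adjusted p = 0.0014). This number of rises rested on single libraries: it was 3 without WT library 3 or 4 or Irgm_IFNAR-KO library 1 or 2, 4 without Irgm_IFNAR-KO library 3, and 14 without the 3 libraries at one end of the axis.

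**Figure D4:**
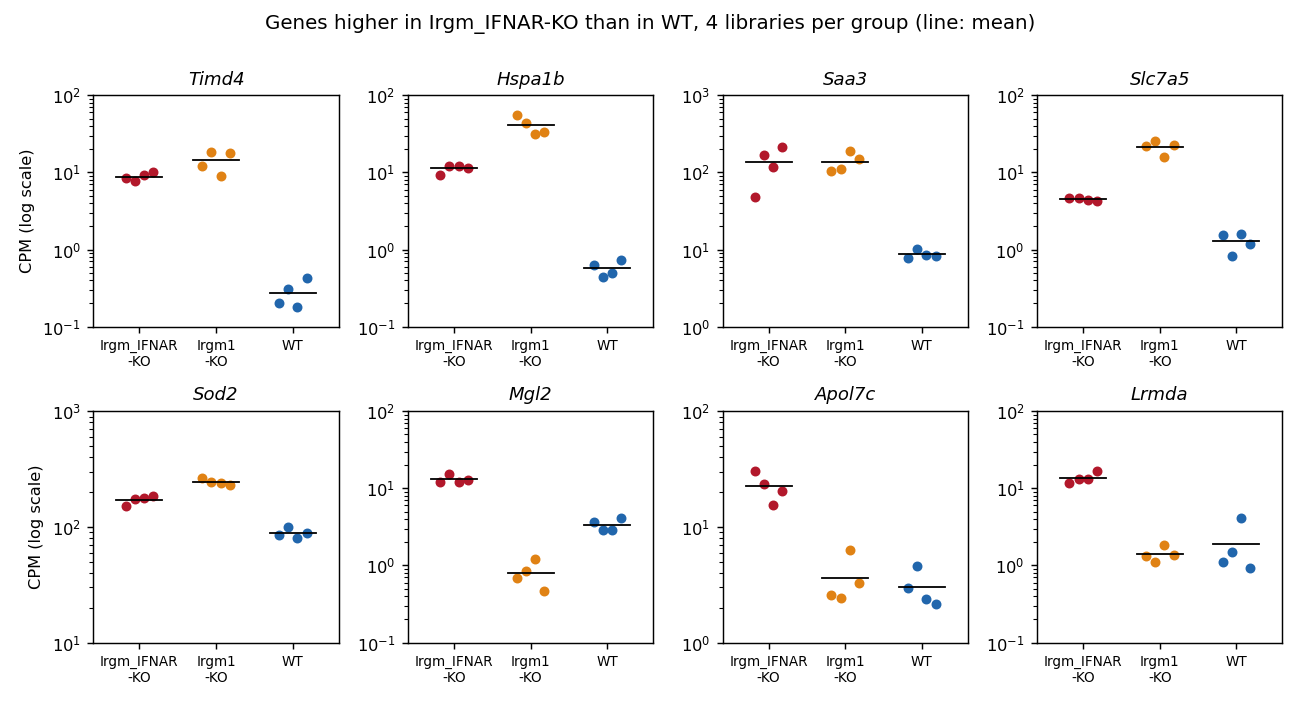
Levels of 8 genes higher in Irgm_IFNAR-KO than in WT in each library, in CPM on a log scale (points: libraries; black line: mean of 4), for Irgm_IFNAR-KO, Irgm1-KO and WT. Timd4, Hspa1b, Saa3, Slc7a5 and Sod2 are higher in both mutants, Mgl2 is higher in Irgm_IFNAR-KO and lower in Irgm1-KO than in WT, and Apol7c and Lrmda are higher in Irgm_IFNAR-KO alone.

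Rises of the class left also included single genes of large size. Timd4, a phosphatidylserine receptor of resident macrophages, had 8.37, 7.68, 9.24 and 10.1 CPM in Irgm_IFNAR-KO, 12.2, 18.5, 8.92 and 18 CPM in Irgm1-KO and 0.204, 0.304, 0.179 and 0.421 CPM in WT (4.96 ± 0.31, adjusted p = 8.6e-07). The gene lies 2.04 Mb from Irgm1. Saa3, an acute-phase protein, had 48.5, 167, 119 and 214 CPM in Irgm_IFNAR-KO and 7.69, 10.1, 8.60 and 8.17 CPM in WT, a wide spread in the mutant but no overlap (3.99 ± 0.40, adjusted p = 4.0e-05). C1s1, a complement protease, had 8.22, 14, 13 and 13.1 CPM in Irgm_IFNAR-KO against 2.46, 2.17, 1.81 and 3.07 CPM in WT (2.34 ± 0.18, adjusted p = 6.4e-06). Mmp14, a membrane-bound matrix protease, had 50.4, 48.8, 45.9 and 43.6 CPM in Irgm_IFNAR-KO against 16.8, 7.47, 7.51 and 8.56 CPM in WT (2.23 ± 0.25, adjusted p = 9.9e-05).

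Rises of the opposite class were led by Mgl2, a galactose-type lectin and marker of alternative activation. It had 11.9, 15.4, 12.2 and 12.7 CPM in Irgm_IFNAR-KO, 0.679, 0.859, 1.20 and 0.466 CPM in Irgm1-KO and 3.64, 2.89, 2.90 and 4.07 CPM in WT (1.95 ± 0.21, adjusted p = 6.4e-05; -2.07 ± 0.23 in Irgm1-KO, adjusted p = 2.2e-05). Pdcd1lg2, the checkpoint ligand PD-L2, had 3.97, 5.0, 5.15 and 4.79 CPM in Irgm_IFNAR-KO, 0.764, 0.758, 0.778 and 0.599 CPM in Irgm1-KO and 1.93, 2.13, 2.02 and 2.46 CPM in WT (1.14 ± 0.12, adjusted p = 6.3e-05). Zfp366 (DC-SCRIPT), a transcription factor of dendritic cells, had 9.18, 9.36, 11.6 and 9.22 CPM in Irgm_IFNAR-KO, 1.12, 0.825, 1.08 and 1.05 CPM in Irgm1-KO and 4.58, 3.45, 4.87 and 4.05 CPM in WT (1.21 ± 0.13, adjusted p = 6.6e-05). Of 9 dendritic cell markers 7 had a value, with Cd209a and Siglech not among them. Their summed level was 66.2 to 79.2 CPM in Irgm_IFNAR-KO, 31.0 to 37.9 CPM in Irgm1-KO and 53.6 to 66.6 CPM in WT. Most of this sum was the single gene Clec9a in every library, so its differences largely follow that gene. The dendritic markers Flt3 and Zbtb46 were at 0.31 CPM or less in every library. Of the 5 markers tested 2 rose and 1, Ccr7, fell. The part of dendritic cells in the rises of the opposite class was not tested. Of the 20 alternative activation markers tested 4 rose and 2 fell (median -0.06), against 3.94% and 8.22% of all genes. The largest of these rises was Timd4, the phosphatidylserine receptor given above in the class left. In Irgm1-KO 14 of the 20 fell (median -1.30), against 20.7% of all genes. Folr2, a folate receptor, was one of the 2 falls in Irgm_IFNAR-KO (-1.65 ± 0.22, adjusted p = 3.0e-04).

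Of 25 genes of cholesterol synthesis and uptake 6 rose and none fell in Irgm_IFNAR-KO (median 0.22), against 3.94% and 8.22% of all genes. In Irgm1-KO 18 fell and none rose (median -0.67), against 20.7% and 19.8% of all genes. Sqle, the rate-limiting squalene epoxidase, had 13.2, 12.9, 14.9 and 11.7 CPM in Irgm_IFNAR-KO, 2.95, 2.54, 2.57 and 2.76 CPM in Irgm1-KO and 9.36, 7.84, 6.42 and 8.82 CPM in WT (0.70 ± 0.12, adjusted p = 0.0018). The number of rises was 3 without Irgm_IFNAR-KO library 1 or 3. Of 7 mitochondrially encoded messenger RNAs tested 3 rose in Irgm_IFNAR-KO (median 0.29) and all 7 fell in Irgm1-KO (median -1.65). These 3 rises were 1 without WT library 3 or 4 or Irgm_IFNAR-KO library 3, and 0 without Irgm_IFNAR-KO library 1. Of 15 MHC class II genes 3 rose and 1 fell (median 0.20), the fall not without WT library 3. Cd74, the invariant chain, had 7760.2, 7836, 7349 and 8763 CPM in Irgm_IFNAR-KO, 4439, 4596, 4525 and 4535 CPM in Irgm1-KO and 5668, 5810.3, 5754 and 5716 CPM in WT (0.47 ± 0.06, adjusted p = 2.6e-04). The rises of this list were 5 without WT library 2 and 6 without the 3 libraries at one end of the axis.

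Changes gained in Irgm_IFNAR-KO included rises of genes that were not called in Irgm1-KO. Apol7c, an apolipoprotein L family member, had 30.5, 23.5, 15.4 and 20.3 CPM in Irgm_IFNAR-KO, 2.59, 2.44, 6.28 and 3.28 CPM in Irgm1-KO and 2.97, 4.58, 2.38 and 2.16 CPM in WT (2.90 ± 0.35, adjusted p = 1.4e-04). Lrmda had 11.9, 13.2, 13.1 and 16.9 CPM in Irgm_IFNAR-KO, 1.34, 1.11, 1.86 and 1.35 CPM in Irgm1-KO and 1.10, 1.48, 4.12 and 0.930 CPM in WT (2.85 ± 0.39, adjusted p = 4.3e-04). Fzd1, a Wnt receptor, had 14.3, 11.9, 17 and 15.4 CPM in Irgm_IFNAR-KO against 5.90, 3.22, 3.71 and 3.92 CPM in WT (1.81 ± 0.28, adjusted p = 9.1e-04), and the membrane protein Tmem176a had 35.1, 42.1, 33.6 and 41.6 CPM in Irgm_IFNAR-KO against 11.4, 11.8, 14.5 and 11.9 CPM in WT (1.62 ± 0.18, adjusted p = 9.9e-05).

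The gained falls were led by Ifi27l2a, an interferon-inducible mitochondrial protein. It had 14.6, 16.8, 11.3 and 22.5 CPM in Irgm_IFNAR-KO, 598, 669, 2274 and 826 CPM in Irgm1-KO and 292, 1875, 643 and 529.6 CPM in WT (-5.68 ± 0.68, adjusted p = 1.4e-04). WT library 2 and Irgm1-KO library 3, which lie at one end of the within-group axis, were the highest of their groups. The same libraries were highest for Plac8, a monocyte marker, with 43.8, 77.7, 44.1 and 71 CPM in Irgm_IFNAR-KO, 249, 228, 732 and 294 CPM in Irgm1-KO and 125, 597, 405 and 253 CPM in WT (-2.54 ± 0.50, adjusted p = 0.0049). The summed level of 8 monocyte markers, Plac8 among them, was 299.4 to 396.8 CPM in Irgm_IFNAR-KO, 328.2 to 969.3 CPM in Irgm1-KO and 381.1 to 1120 CPM in WT. Plac8 and Ccr2 together made up most of this sum, so it is not independent of the Plac8 values. All 8 had a value, 2 fell and none rose, against 8.22% of all genes that fell, and their part in these falls was not tested. Camk2b, a calcium-dependent kinase, did not follow the axis, with 4.43, 5.50, 3.08 and 4.04 CPM in Irgm_IFNAR-KO, 30.8, 40.4, 34.6 and 62.8 CPM in Irgm1-KO and 25.9, 37, 34 and 31.7 CPM in WT (-2.91 ± 0.24, adjusted p = 1.0e-05). Tlr7, the endosomal receptor for single-stranded RNA, had 152, 130.3, 138 and 109 CPM in Irgm_IFNAR-KO, 393, 374, 320.0 and 359 CPM in Irgm1-KO and 381, 248, 361 and 346 CPM in WT (-1.33 ± 0.14, adjusted p = 6.0e-05).

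Of 26 macrophage receptors and transcription factors 5 fell and none rose (median 0.02), against 8.22% of all genes that fell. Siglec1, a sialic acid receptor induced by interferon, had 99.3, 99.0, 100.4 and 60.5 CPM in Irgm_IFNAR-KO, 563, 591, 364 and 517 CPM in Irgm1-KO and 421, 161, 289 and 301 CPM in WT (-1.71 ± 0.27, adjusted p = 0.0012). Adgre1 (F4/80) had 1722 ± 44.9 CPM in Irgm_IFNAR-KO and 1566 ± 43.1 CPM in WT (SD, n = 4 each; 0.14, adjusted p = 0.15). Axl, a receptor for dying cells, had 112, 106, 102 and 106 CPM in Irgm_IFNAR-KO, 765, 647, 767 and 729.7 CPM in Irgm1-KO and 338, 327, 456 and 324 CPM in WT (-1.76 ± 0.11, adjusted p = 1.2e-06). Hpgd, which inactivates prostaglandins, had 14.5, 10.7, 12.1 and 10.7 CPM in Irgm_IFNAR-KO and 13.8, 21.8, 18.3 and 15 CPM in WT, with overlap (-0.52, adjusted p = 0.078), while Irgm1-KO had 0.127, 0.236, 0.237 and 0.0998 CPM. Lysosomal genes fell in 12 of 48 cases and none rose (median -0.14), against 8.22% of all genes that fell, with Ctsd (cathepsin D) at -0.66 ± 0.14 (adjusted p = 0.0083). Of 42 peroxisomal genes 2 rose and 1 fell (median 0.04), against 3.94% and 8.22% of all genes. The rises were 1 when any 1 WT or Irgm_IFNAR-KO library other than WT library 1 was left out, and the fall was lost without WT library 1 or 4 or Irgm_IFNAR-KO library 1, 2 or 4.

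The other lists held few calls or calls in both directions, beside 3.94% of all genes that rose and 8.22% that fell. Of 33 matrix and adhesion genes 5 rose and 10 fell (median 0.06). Spp1 (osteopontin) had 166, 161, 161 and 148 CPM in Irgm_IFNAR-KO, 306, 362, 382 and 383 CPM in Irgm1-KO and 298.3, 319, 317 and 345 CPM in WT (-1.01 ± 0.09, adjusted p = 1.1e-05), and Timp1, an inhibitor of matrix proteases, differed by -1.91 ± 0.31 (adjusted p = 0.0014). Of 17 chemokine receptors 1 rose and 6 fell (median -0.30), with Ccr7, a receptor of migrating dendritic cells and one of the dendritic markers given above, at -2.58 ± 0.52 (adjusted p = 0.0056). Of 29 cell-cycle inhibitors and p53 targets 1 rose and 9 fell (median -0.23). Of 28 apoptotic-cell receptors, complement and Fc receptor genes 2 rose and 5 fell (median -0.19), with the bridging protein Mfge8 at 7.70, 8.52, 7.85 and 7.85 CPM in Irgm_IFNAR-KO against 18.3, 18.6, 18.3 and 16 CPM in WT (-1.16 ± 0.07, adjusted p = 9.0e-07). Its falls were 3 without Irgm_IFNAR-KO library 2, and its rises 1 without Irgm_IFNAR-KO library 1 or 3. Of 33 Toll-like receptor and inflammasome genes 3 rose and 4 fell (median -0.02), of 17 LXR and cholesterol efflux genes 1 rose and 4 fell (median -0.01), and of 30 immediate-early genes 4 rose and 1 fell (median 0.04). Ch25h, which makes an interferon-inducible oxysterol, had 11.8, 10.1, 9.33 and 12.7 CPM in Irgm_IFNAR-KO, 175.6, 151, 137 and 157 CPM in Irgm1-KO and 25.2, 25.3, 27.8 and 27.2 CPM in WT (-1.26 ± 0.11, adjusted p = 1.2e-05). Of 23 eicosanoid genes 5 rose and 2 fell (median 0.08). Ptgs2 (cyclooxygenase 2) had 43.5, 51.9, 62.4 and 46.1 CPM in Irgm_IFNAR-KO against 36.1, 26.5, 27.1 and 29.4 CPM in WT (0.78 ± 0.19, adjusted p = 0.021). Without WT library 3 or 4 or Irgm_IFNAR-KO library 2 or 3, Ptgs2 was not called and 3 eicosanoid genes rose. The 2 eicosanoid falls were 0 without WT library 3 or 4 or Irgm_IFNAR-KO library 2, 3 or 4, and 1 without WT library 1 or Irgm_IFNAR-KO library 1. The 3 Toll-like receptor rises were 1 without Irgm_IFNAR-KO library 3. The 4 Toll-like receptor falls were 2 without WT library 3 or 4 or Irgm_IFNAR-KO library 2, 3 or 4, and the 4 LXR falls were 2 without WT library 4 or Irgm_IFNAR-KO library 1 or 4. The LXR rise was lost without WT library 2, 3 or 4 or Irgm_IFNAR-KO library 2, 3 or 4, and immediate-early falls were 2 without WT library 1 and 3 without WT library 2.

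The neighbourhoods of Irgm1 and Ifnar1 were examined because both alleles were backcrossed. Whether donor chromosome remains there was not tested. Within 5 Mb of Irgm1, 4 of 78 tested genes rose and 5 fell (11.5%), and within 5 Mb of Ifnar1, 4 of 56 rose and 2 fell (10.7%), both near the 12.2% of all genes. Timd4 and Havcr2, neighbours in the same TIM family, moved apart. Havcr2 (TIM-3) had 21.6, 16.2, 20.3 and 17.1 CPM in Irgm_IFNAR-KO, 33.5, 31.6, 29.0 and 32.3 CPM in Irgm1-KO and 38, 42.6, 43.7 and 39.7 CPM in WT (-1.12 ± 0.10, adjusted p = 1.4e-05). Gm49727, a predicted gene 0.57 Mb from Ifnar1, had 176, 122, 113 and 123 counts in Irgm_IFNAR-KO against 2, 0, 1 and 9 counts in WT. Cfap298, a cilia and flagella gene at the same distance, had 4.26, 5.72, 5.0 and 6.56 CPM in Irgm_IFNAR-KO against 2.91, 4.04, 2.90 and 2.79 CPM in WT (0.77 ± 0.17, adjusted p = 0.009). Reads of these neighbours may not be fully separated, since the use of strand in counting is not stated.

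**Figure D5:**
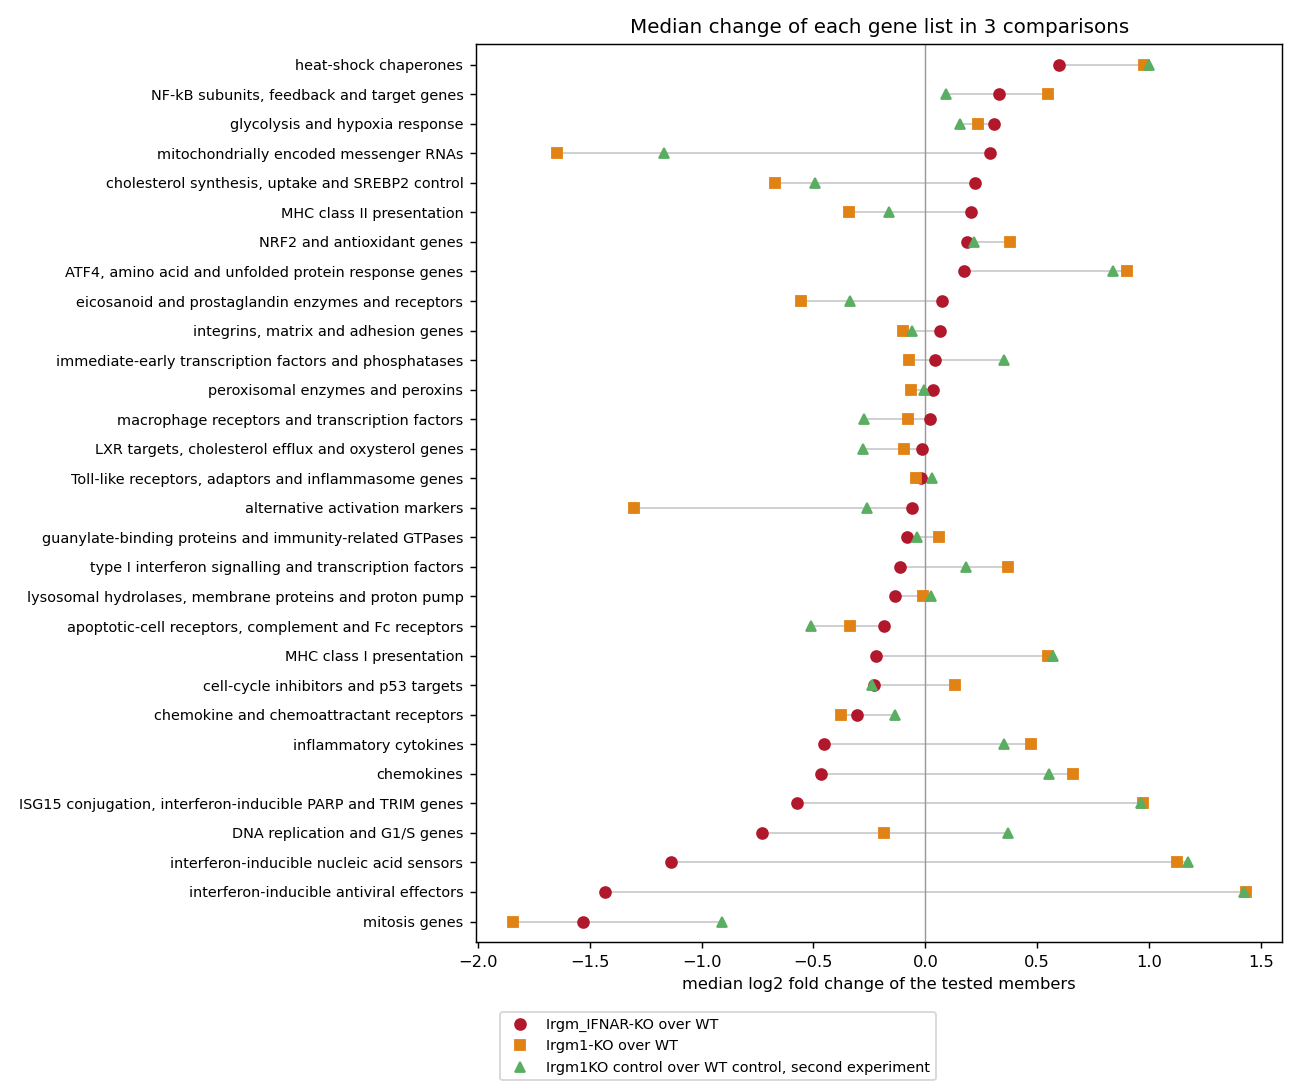
Median log2 fold change of the tested members of 30 gene lists in Irgm_IFNAR-KO over WT (red circles), Irgm1-KO over the same WT libraries (orange squares) and Irgm1KO control over WT control in the second experiment (green triangles). For the interferon-inducible effectors the medians are -1.43, 1.43 and 1.43, and for mitosis genes -1.53, -1.84 and -0.91.

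A second experiment of the study, which shares no library with the first, holds control-treated Irgm1KO and WT BMM (n = 4 each). It gives values for the classes in other cultures of cells that lack Irgm1 alone. Of 13676 genes tested in both experiments, 29.2% rose and 27.9% fell in Irgm1KO control against WT control. Of 212 rises of the class left 147 (69.3%) rose there and 3 fell, and of 442 falls 284 (64.3%) fell. Of 161 opposite rises 127 fell there and of 421 opposite falls 375 rose. Of the gained rises 53 of 137 (38.7%) fell and 10 rose, and of the gained falls 76 of 235 (32.3%) rose and 28 fell. Among the gained falls named above, Ifi27l2a and Camk2b rose there (1.47 ± 0.17 and 1.02 ± 0.15, adjusted p = 4.2e-06 and 3.7e-05). Plac8 was not called there (0.85 ± 0.53, adjusted p = 0.20).

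Mitosis and replication genes parted in that experiment. Of 52 mitosis genes 45 fell and 3 rose in Irgm1KO control (median -0.91), whereas of 51 replication genes 34 rose and 2 fell (median 0.37). Plk1 had 10.5 ± 1.49 CPM in Irgm1KO control and 27.4 ± 3.62 CPM in WT control (SD, n = 4 each; -1.39 ± 0.15, adjusted p = 1.6e-06). Mcm5 had 90.2 ± 7.47 CPM in Irgm1KO control and 49.3 ± 2.91 CPM in WT control (0.87 ± 0.09, adjusted p = 5.2e-07). All 14 heat-shock genes that changed there rose, with Hspa1b at 62.4 ± 8.16 CPM in Irgm1KO control and 1.18 ± 0.405 CPM in WT control. Timd4 was 22.2 ± 2.20 CPM in Irgm1KO control and 2.48 ± 4.26 CPM in WT control (3.17 ± 1.12, adjusted p = 0.029), a wide spread. Cxcl9 had 1677 ± 182 CPM in Irgm1KO control and 1152 ± 260.5 CPM in WT control (0.54 ± 0.18, adjusted p = 0.019).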

How the data were processed

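Messenger RNA enriched from total RNA of BMM was sequenced, per the labels, and the authors deposited whole-number read counts per gene in 1 table for each experiment, with no normalization. The submitters' processing notes name fastp, STAR, DESeq2 and build GRCm39, with versions, counting tool and strand setting not given in the sources used here. All columns were used. From these counts, edgeR 4.0.16 (R 4.3.3) fitted all 12 libraries of the first experiment in 1 model with group as the only term, after filterByExpr (minimum count 10, minimum total 15) and TMM scaling. The quasi-likelihood test (robust) was adjusted by Benjamini-Hochberg over all 13998 genes, and a gene was called at an adjusted p of 0.05 or below. SE is the log2 fold change divided by the square root of F. The second experiment (16 libraries) was fitted apart in the same way. The script was tested on simulated data. Total counts were 48652844 to 70455339 per library in the first experiment, and the spread between 4 libraries limits the precision. Alternatives were DESeq2 1.42.0, other filters, fewer libraries, a replicate block and a covariate.

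The samples compared and the 30 gene lists and 13 marker lists were chosen with earlier results of these data known. Named genes were Irgm1, Ifnar1, Ifnar2, the 12 largest rises and falls among called genes of at least 5 CPM whose groups did not overlap, the 6 largest of each class, up to 4 members of each list by p, called genes within 5 Mb of Irgm1 or Ifnar1, and a set of textbook genes. Adgre1, Apol9a, Apol9b, B2m, Ccl12, Ccl5, Cdc20, Ctsd, Gbp2, H2-K1, Ifi208, Igtp, Iigp1, Mcm5, Pycr1, Rrm2, Rsad2, Samhd1, Socs3, Tap1, Timp1, Tlr7, Trim30d, Ube2c and Xist fall outside this rule and were chosen after their values were seen. Promoters were read from RefSeq (GRCm38.p6); GENCODE M21 on the same build gave distances to the targeted genes, and no coordinates were converted to GRCm39. Some genes are not reported here.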

Additional observations from a re-analysis of the deposited data

Results flagged for a closer look

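For each gene named above, the highest or lowest of the 4 libraries in each group was compared with the others by Dixon's ratio, the gap to the nearest library over the range of the group and its 95% limit for 4 samples. Of 333 groups checked 27 were past it, and chance flags about 1 in 20. In Irgm_IFNAR-KO, library 4 stood low for Siglec1 (0.966) and Oas2 (0.922) and high for Ccl12 (0.851), library 3 stood low for Ifnar1 (0.897) and high for Zfp366 (0.925) and Mx1 (0.837), library 1 stood low for C1s1 (0.831), and library 2 stood low for Ube2c (0.844). In Irgm1-KO, library 3 stood high for 9 genes, which were Tmem176a (0.894), Usp18 (0.888), Oas1g (0.875), Plac8 (0.870), Ccl12 (0.866), Ifi27l2a (0.864), H2-T24 (0.861), Irf7 (0.859) and Isg15 (0.857). Library 1 of that group stood high for Ifi213 (0.876) and library 4 low for Pdcd1lg2 (0.885). In WT, library 2 stood high for Cfap298 (0.903) and Mcm5 (0.896) and low for Ifi213 (0.885), library 1 stood high for Mmp14 (0.884) and Tnfaip2 (0.838) and low for H2-T24 (0.857), library 3 stood high for Axl (0.894), and library 4 stood low for Mfge8 (0.910). Irgm1-KO library 3 and WT library 2 lie at one end of the within-group axis, and the part of that axis in these values was not tested.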

How the results depend on the processing

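With log2 Xist as a covariate, 2208 genes rose and 2229 fell, and 1710 changes were left, 957 gained and 1545 opposite; the cause was not tested. The DESeq2 Wald test called 834 rises and 1401 falls. It also called Adgre1, B2m, H2-K1, Hpgd, Irf9 and Tap1, which the main fit did not call. With the Xist covariate these genes were called too, as were Ifnar2 and Mki67. Leaving out 1 library at a time gave 337 to 542 rises and 887 to 1165 falls, and these fits have fewer samples. DESeq2 size factors (539 rises and 1139 falls), no filter (546 and 1144), a stricter filter (533 and 1045) and the 8 libraries alone (408 and 950) stayed within 1.5 times the main counts. Deviations of libraries with the same number in Irgm_IFNAR-KO and WT correlated at r from -0.23 to 0.5, with number 1 alone best matched to itself. Since 1 axis held 53.8% of the within-group variance, these values cannot decide whether the numbers pair the samples. A fit with the replicate block gave 417 rises and 980 falls, with 538 changes left, 302 gained and 499 opposite. No named gene that was called in the main fit or in an alternative one changed direction between them. Genes called in neither were not checked for direction. Of 111 named genes, 107 were tested with the stricter filter and 109 in the 8 libraries alone. Without the 3 libraries at one end of the axis, an alternative chosen after seeing the data, 870 changes were left, 512 gained and 882 opposite.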
